A study of Caenorhabditis elegans with 2 samples.

Results

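The homeobox factor genes of Caenorhabditis elegans were examined for recovery of tagged HLH-17 by chromatin immunoprecipitation and sequencing (ChIP-seq). The members were the 87 genes of the Ensembl WBcel235 annotation that are named ceh- plus a number or belong to a list of 24 further homeobox genes, out of 19973 protein-coding genes. All 87 are annotated as protein-coding, with 24 on X, 16 on each of II and III, 15 on V, 10 on I and 6 on IV. For each member, peaks were collected whose summit lay in the gene body or up to 5000 bp upstream of the start, called its window here. Each member's peaks were described by their rank on the deposited signal value, where rank 1 is the strongest peak of a list, and by their recovery in the replicates.

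All samples were whole larvae of strain OP643, which carries the integrated transgene wgIs643, with hlh-17 fused to TY1, EGFP and 3xFLAG and a wild-type unc-119 copy, in an unc-119 (tm4063) background. The animals, of both sexes, were L1 larvae of 6 h, starved after bleaching, and the antibody recognised the fluorescent tag. There were 2 biological replicates in 1 group and no second condition, so no difference between conditions could be tested. The peak lists carry no read numbers, so depth is unknown, and a peak not found in a replicate was not shown to be absent. The tag was carried by a transgene, and whole larvae were pooled, so a site bound in few cells and a weakly bound site in many cells cannot be told apart.

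Homeobox genes encode transcription factors with a DNA-binding homeodomain. Hox genes pattern the body axis, LIM, POU and paired-like members fix the identity of many neuron types, NK-like members act in muscle, pharynx and neurons, and TALE proteins bind DNA together with Hox proteins. HLH-17 belongs to the Olig family of basic helix-loop-helix factors, is known from glia of the head, and its family binds E-boxes, CANNTG.

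None of the 87 members reached the authors' thresholded list of 115 peaks, while nearly every one had a peak in the relaxed lists of 30000. A thresholded summit lay in the window of 0 of 87 members (95% exact Clopper-Pearson interval 0 to 4.15%), against 1.07% of all protein-coding genes. Against so low a background, a count of 0 in 87 is not a result about the members. The thresholded list held the 115 peaks of highest pooled signal. A pooled relaxed peak lay in the windows of 85 members (97.7%, 91.9 to 99.7), against 87.8% of all protein-coding genes. A pooled peak with a summit of each replicate within 100 bp, called found in both replicates here, lay in the windows of 49 members (56.3%, 45.3 to 66.9), against 46.5%. A pooled peak of rank 1 to 1000 lay in those of 10 members (11.5%, 5.65 to 20.1), against 7.71%, and the interval holds that background. In the list of replicate 1 alone this count was 6 (background 7.65%), in that of replicate 2 alone 10 (background 7.96%), and with gene bodies alone in the pooled list 6 (6.9%, 2.57 to 14.4, background 3.31%). Gene bodies had a median length of 3306 bp at the members, against 2027 bp. The members' windows were longer, with a median of 8306 bp against 7027 bp. Per 10 kb of window there were 3.53 pooled peaks at the members, against 3.06 at all protein-coding genes, and 0.863 against 0.823 for peaks found in both replicates. None of these differences was tested. The 2 members without a pooled peak were ceh-58 and ceh-88.

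The strongest peaks at homeobox genes ranked from 178 to 992 and lay at unc-62, ceh-90, vab-7, ceh-24, vab-15, ceh-22, lim-6, nob-1 with php-3, and unc-30. The pooled signal of these 11 peaks was 111 to 137, against 146 at rank 115, where the thresholded list ends, and 658 at rank 1. Of the 11, 7 were found in both replicates, against 82.3% of all pooled peaks of rank 1 to 1000. The 4 others had no summit of replicate 1 within 100 bp, and all 11 had one of replicate 2. In 8 of the 11 the rank was higher in replicate 2, as it was for 66.4% of all pooled peaks of rank 1 to 1000. The pooled list leant to replicate 2 as a whole: 69.5% of its peaks were found in replicate 2 and 47.2% in replicate 1. At the members these shares were 70.7% and 47%. Their part in the ranks of single members was not tested.

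The peak at ceh-24 ranked high in both replicates. This gene of the NK-2 family had a summit 52 bp upstream of its start. Its signal was 48.1 in replicate 1, where it ranked 598, and 84.2 in replicate 2, where it ranked 636. It was the only one of the 266 pooled peaks at homeobox genes (0.376%) that ranked in the first 1000 of both replicates at a single site, a share that was 0.433% over all pooled peaks. By gene, 2 members (2.3%) had a peak of rank 1 to 1000 in each replicate list, ceh-24 and ceh-22, against a background of 2%.

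At ceh-22, an NK-family gene of pharyngeal muscle, the peaks of the replicates lay apart. The peak of replicate 2 ranked 98 with a signal of 105 and lay 726 bp inside the gene, in coding sequence. A non-coding gene, F29F11.19, overlaps that summit. The peak of replicate 1 ranked 945 with a signal of 45.3 and lay 3797 bp inside the gene, 3071 bp from the pooled summit of rank 301. The replicate 1 summit nearest to that pooled summit lay more than 100 bp from it and ranked 26955.

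The highest-ranked member peak was in unc-62, which encodes a TALE protein of the Meis family that binds DNA with Hox proteins. It ranked 178 in the pooled list, 1448 in replicate 1 and 352 in replicate 2. The summit lay 7387 bp downstream of the start, in sequence annotated as the 5′ UTR of part of the transcripts. A second unc-62 peak, of rank 1127 in an intron, ranked 479 in replicate 2 and 25931 in replicate 1, so it was strong in replicate 2 alone.

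Further strong peaks were high in a single replicate. The peak of ceh-90 ranked 95 in replicate 1 (signal 62.3) and 2390 in replicate 2 (signal 71.4). It lay 3292 bp upstream of ceh-90 but inside lgc-25, 1429 bp from that gene's start, so that start was the nearer. The peak upstream of vab-15, an Msx-type gene needed for touch neurons, ranked 181 in replicate 2 (signal 96.7) and 5084 in replicate 1 (signal 35.1), 4499 bp from the start. The intron peak of lim-6, a LIM gene of several GABA neurons, ranked 797 in replicate 1 (signal 46.3) and 3343 in replicate 2 (signal 68.0). That summit lay 5379 bp inside lim-6, yet the nearest start, 2818 bp away, was that of pfn-3. In unc-30, the Pitx-type gene of GABA motor neurons, the peak in coding sequence ranked 414 in replicate 2 (signal 88.2). The nearest summit of replicate 1 to it was 117 bp away, at rank 8883.

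At vab-7 the replicates also differed. vab-7, the even-skipped gene of the worm, acts in posterior cells and in DB motor neurons, and its intron peak of pooled rank 205 ranked 78 in replicate 2 (signal 108). The nearest replicate 1 summit was 247 bp away, with rank 11930 (signal 29.2). vab-7 lies 11409 bp from unc-119, the gene of which the transgene carries an added copy. How far the transgenic fragment reaches was not given in the sources used here, and the part of added copies in this peak was not tested. No other member lay within 100 kb of unc-119, and the member nearest to hlh-17 was 1072914 bp away.

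The reference sequences within 50 bp are shown for 5 of these summits, the strongest where that stretch touches no annotated UTR. They are read from the RefSeq WBcel235 assembly on its forward strand, 5′ to 3′, and capitals mark the E-box, CANNTG.
ceh-24, rank 222, chrV:13813129-13813229: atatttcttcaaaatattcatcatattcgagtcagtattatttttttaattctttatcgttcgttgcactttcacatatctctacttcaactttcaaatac
ceh-90, rank 188, chrX:14160255-14160355: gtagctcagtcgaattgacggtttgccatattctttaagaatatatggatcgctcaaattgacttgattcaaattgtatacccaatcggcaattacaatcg
vab-7, rank 205, chrIII:10923268-10923368: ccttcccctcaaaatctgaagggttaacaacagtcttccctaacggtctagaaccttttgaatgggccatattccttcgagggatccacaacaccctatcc
vab-15, rank 261, chrX:9842726-9842826: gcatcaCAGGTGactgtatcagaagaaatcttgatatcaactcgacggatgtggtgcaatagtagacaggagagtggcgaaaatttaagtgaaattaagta
lim-6, rank 440, chrX:1077781-1077881: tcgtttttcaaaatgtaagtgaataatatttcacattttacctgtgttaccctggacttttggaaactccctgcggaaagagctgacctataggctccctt
Among these 5, the vab-15 summit had an E-box within 50 bp, of the form CAGGTG, and the other 4 had none.

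**Figure D1:**
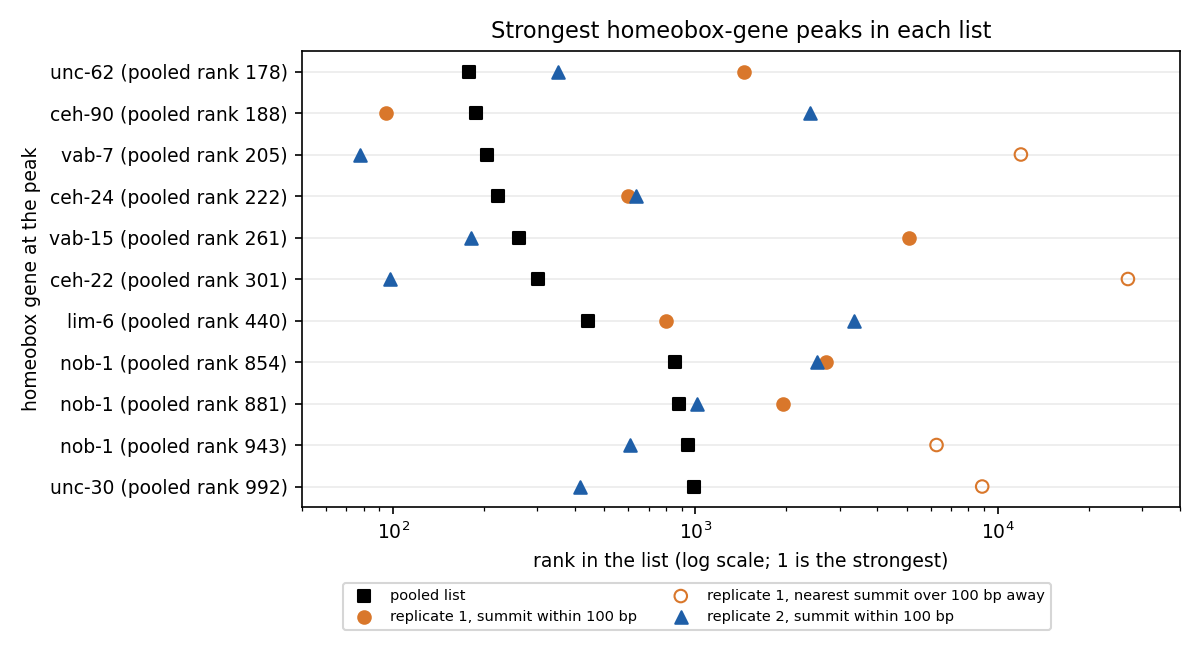
Ranks of the 11 peaks of pooled rank 1 to 1000 at homeobox genes, 1 peak a line, in the pooled list and in both replicates on a log axis, with open symbols where the nearest replicate 1 summit was over 100 bp away. The replicate ranks nearly coincide for ceh-24 (598 and 636) and for the nob-1 peak of pooled rank 854 (2710 and 2532). Those of most other peaks lie far apart, with vab-7 and ceh-22 at rank 78 and 98 in replicate 2.

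Among the 6 Hox genes, nob-1 and lin-39 held most of the peaks found in both replicates. Hox windows held 26 pooled peaks, of which 12 (46.2%) were found in both replicates, against 27% of all pooled peaks. Without lin-39, nob-1 and php-3, 2 of the remaining 8 were. These genes were singled out after their values were seen, and the share was not tested. Peaks in the windows of both nob-1 and php-3 were counted once.

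nob-1 and php-3 are adjacent posterior Hox genes of the Abdominal-B type, and nob-1 is needed for posterior patterning in the embryo. The nob-1 window of 11524 bp held 9 pooled peaks, the most of any member, and 4 were found in both replicates. Of its 9 peaks, 3 ranked in the first 1000, at 854, 881 and 943, all in its long intron. With php-3, which shares 2 of them, it was among the 2 members (2.3%, 0.28 to 8.06) with 2 or more such peaks, against a background of 0.616%. Both php-3 peaks are nob-1 peaks, so these 2 members are a single locus. Windows with 3 or more peaks of rank 1 to 1000 made up 1.15% of the members (0.0291 to 6.24), against 0.0951% of protein-coding genes. Those with 4 or more peaks found in both replicates made up 2.3% (0.28 to 8.06), against 1.17%. Each of these intervals holds its background. The thresholds of 2, 3 and 4 or more were all set after the nob-1 values were seen.

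Of these 3 peaks, 2 were found in both replicates. The peak of rank 881, 2045 bp inside nob-1, ranked 1949 in replicate 1 (signal 41.3) and 1013 in replicate 2 (signal 80.1). That of rank 854, 4602 bp inside nob-1 and 2158 bp upstream of php-3, ranked 2710 in replicate 1 (signal 39.2) and 2532 in replicate 2 (signal 70.8). The peak of rank 943, 1061 bp inside nob-1, ranked 608 in replicate 2, and the nearest summit of replicate 1 was 120 bp away at rank 6274. The peaks of ranks 854 and 881 also fell in the php-3 window, so they are not separate observations for that gene. Nearest to the php-3 start, 185 bp upstream, was a peak of rank 8462 that was found in both replicates.

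lin-39, the Hox gene of the mid-body that acts in the vulval precursors and in neuroblast migration, had the most peaks found in both replicates of any member, 5 of 7, in a window of 12992 bp. Windows with 5 or more such peaks made up 0.501% of protein-coding genes and 1.15% of the members (0.0291 to 6.24), an interval that holds that background. This threshold was set after the lin-39 value was seen. Its strongest, of rank 1797, lay 76 bp upstream of the start and ranked 11782 in replicate 1 (signal 29.2) and 2291 in replicate 2 (signal 72.0). The non-coding gene C07H6.12 overlaps that summit. The others lay 1579 bp upstream (rank 5508) and in introns near the end of the gene (ranks 1978, 3493 and 15575). These 5 peaks ranked between 7804 and 28801 in replicate 1 and between 1678 and 23958 in replicate 2, in lists of 30000. Over all 8089 pooled peaks found in both replicates, the median ranks were 11771 in replicate 1 and 11763 in replicate 2. The difference between the replicates at lin-39 was not tested. The thresholded peak closest to any member was the peak of pooled rank 3, 7795 bp past the 3′ end of lin-39 and outside its window.

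The other Hox genes had weaker peaks. At mab-5, which acts in posterior neuroblasts, 2 of 3 pooled peaks were found in both replicates, at rank 8589 in an intron, nearer to the start of bath-15, and rank 16546 at 16 bp upstream of the start. At egl-5, the Hox gene of the tail, 0 of 4 were found in both, and the best rank was 9464. At ceh-13, the labial-type gene of the anterior embryo, the single pooled peak (rank 7308) lay 679 bp upstream and ranked 1852 in replicate 2, with no replicate 1 summit within 1000 bp.

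The sequences within 50 bp of 5 Hox summits, the 3 strongest of nob-1 and the 2 upstream of lin-39 that were found in both replicates, are shown on the forward strand with E-boxes in capitals.
nob-1, rank 854, chrIII:12079664-12079764: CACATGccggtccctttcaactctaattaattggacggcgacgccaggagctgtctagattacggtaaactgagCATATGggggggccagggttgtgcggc
nob-1, rank 881, chrIII:12082221-12082321: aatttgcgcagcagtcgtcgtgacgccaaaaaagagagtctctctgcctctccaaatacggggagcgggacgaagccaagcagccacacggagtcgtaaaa
nob-1, rank 943, chrIII:12083205-12083305: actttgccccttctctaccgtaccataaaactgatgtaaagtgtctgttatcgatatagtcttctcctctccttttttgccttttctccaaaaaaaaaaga
lin-39, rank 1797, chrIII:7536658-7536758: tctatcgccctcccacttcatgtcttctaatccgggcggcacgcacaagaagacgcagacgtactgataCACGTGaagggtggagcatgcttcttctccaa
lin-39, rank 5508, chrIII:7538161-7538261: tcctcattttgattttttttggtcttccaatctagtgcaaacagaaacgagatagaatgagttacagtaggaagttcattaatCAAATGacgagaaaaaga
The nob-1 summit of rank 854 held CACATG and CATATG, and the lin-39 summit beside the start held CACGTG. The lin-39 summit of rank 5508 held CAAATG, and the nob-1 summits of ranks 881 and 943 held no E-box.

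**Figure D2:**
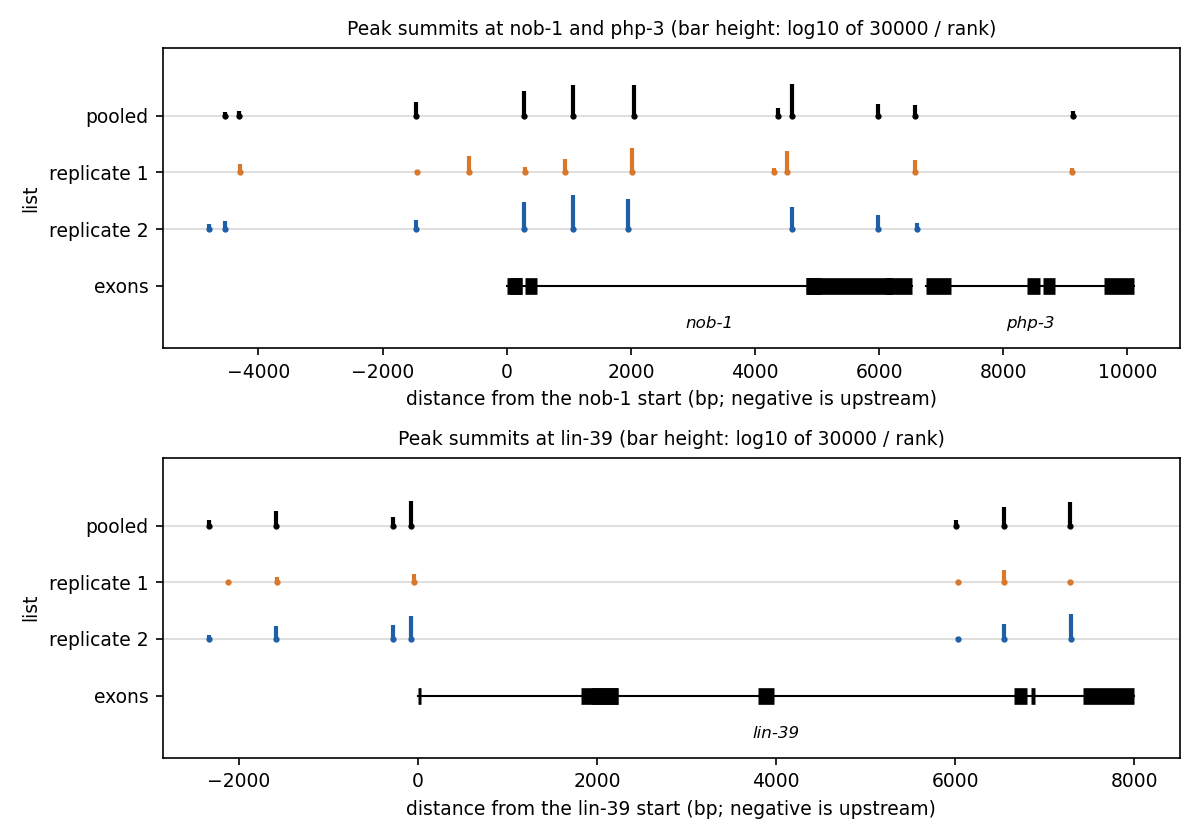
Peak summits of the pooled list and of replicates 1 and 2 along nob-1 with php-3 (top) and lin-39 (bottom), by distance from the nob-1 or lin-39 start in bp, with exons below and bars taller for stronger peaks on a log scale of rank. Summits of both replicates meet at 4 nob-1 peaks and 5 lin-39 peaks.

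The median best rank in the pooled list was 6568 over the 85 members with a peak (quartiles 3740 and 12285), against 7623 over all protein-coding genes with a peak (quartiles 3165 and 14260). Class medians ran from 1620 for pal-1 and vab-7 to 11405.5 for the 4 TALE genes, and these classes hold few genes. Classes were assigned from textbook knowledge to 63 members, and 24 stayed unclassified here. Class counts of genes with a peak found in both replicates are small and stand against 46.5% of all protein-coding genes, and none was tested.

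The 20 NK-like and related genes all had a pooled peak, against 87.8% of all protein-coding genes. Of the 20, 8 had a peak found in both replicates, against 46.5%, and 3 a peak of rank 1 to 1000, against 7.71%. At ceh-43, the Distal-less gene that acts in dopamine neurons, the peak of rank 2138, 823 bp upstream, ranked 599 in replicate 2, and no replicate 1 summit lay within 1000 bp. At ceh-19, which acts in a pharyngeal motor neuron, the peak of rank 2094 was found in both replicates (ranks 14738 and 1291) but lay inside csr-1 and frpr-10, 847 bp from the frpr-10 start. At ceh-12, the HB9 gene of VB motor neurons, the peak of rank 2243 lay in twk-47. It ranked 1316 in replicate 1, and the nearest replicate 2 summit was 105 bp away at rank 4790. The peak of ceh-7 (rank 1969) lay in prx-5 and was found in replicate 2 alone.

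The paired-like genes had a peak found in both replicates at 8 of 11 members, against 46.5% of all protein-coding genes. ceh-36, an Otx-type gene of the taste and odour neurons ASEL and AWC, had its peak of rank 1564 at 49 bp inside the gene, in the 5′ UTR, with ranks 10554 and 2068 in replicates 1 and 2. alr-1, the aristaless gene, which acts in sensory neurons, had 8 pooled peaks, 2 of them found in both replicates, 2245 and 955 bp upstream. They ranked 3702 and 3965 in the pooled list, and neither was in the first 5000 of a replicate. pal-1, the caudal gene of posterior blastomeres, had its best peak in an intron (rank 3035), nearer to the start of metl-5, where it ranked 4896 in replicate 1 and 22783 in replicate 2.

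Among the POU and LIM genes, which include many selectors of neuron types, lim-6 alone had a pooled peak of rank 1 to 1000. Such a peak lay in the windows of 7.71% of all protein-coding genes. All 3 POU genes had a peak found in both replicates. The best pooled ranks were 4791 for ceh-6, which also acts in the excretory cell, 6568 for unc-86, which specifies many sensory neurons, and 6124 for ceh-18, which acts in the gonadal sheath. The ceh-18 peak of that rank was found in replicate 2 alone, and its peak of rank 9358 in both. Of 7 LIM genes, 4 had a peak found in both replicates. Beside lim-6 these were lin-11 (rank 5099, 4619 bp upstream), ttx-3 of the AIY interneuron (rank 5471, in an exon) and ceh-14 of the thermosensory AFD neuron (rank 5507, in an intron). The replicate ranks of these 3 peaks lay between 7705 and 28638. mec-3, the selector of touch neurons, had a best rank of 19684.

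The sine oculis, CUT and TALE classes had 3 of 4, 5 of 6 and 3 of 4 genes with a peak found in both replicates, against 46.5% of all protein-coding genes. ceh-21 and ceh-41, neighbouring CUT genes, shared 2 pooled peaks, and that of rank 4094 was found at ranks 4525 and 3153 in replicates 1 and 2. It was the only peak found in both replicates at either gene and counts for each. The 5 CUT genes thus rest on 4 distinct peaks. The sine oculis-type gene unc-39 had a peak 14 bp upstream of its start that was found in both replicates at ranks 14751 and 12798. At the Pbx-type gene ceh-20, a peak among the first 1000 of replicate 1 (signal 54.1) had a pooled rank of 19359, and the nearest replicate 2 summit was 453 bp away. These CUT, unc-39 and ceh-20 peaks were chosen after their values were seen. Of the 24 unclassified members, 9 had a peak found in both replicates. The strongest after ceh-90 were ceh-93 (rank 1311, nearer to the start of R04A9.9) and ceh-89 (rank 1999, inside nkat-1).

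**Figure D3:**
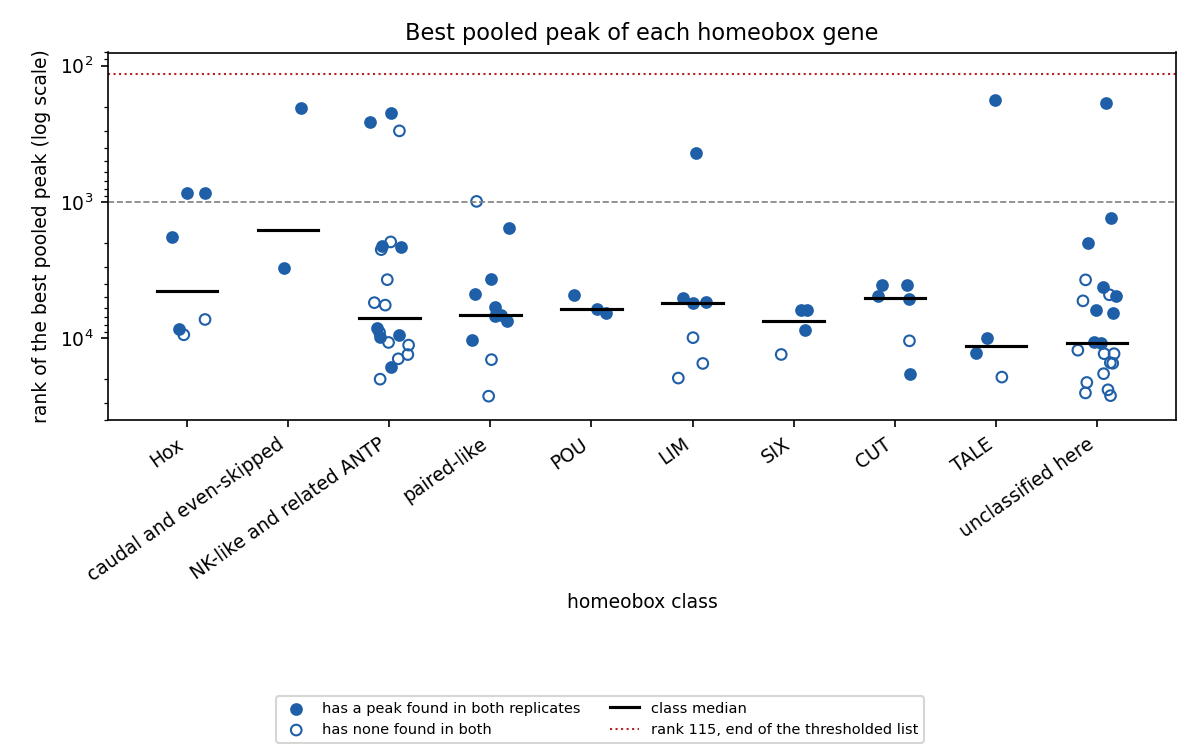
Rank of the best pooled peak of each of the 85 homeobox genes that have one, by class on a log axis with rank 1 toward the top. Filled points have a peak found in both replicates, bars are class medians, the dashed line is rank 1000 and the dotted line rank 115. All points lie below the dotted line and 10 lie above the dashed line.

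Peaks at homeobox genes lay more often in introns than those of all genes, and the windows held more intron. Of 275 pairs of a member and a pooled peak, 139 (50.5%) lay upstream, 80 (29.1%) in introns and 56 (20.4%) in exons, against 56.5%, 17.2% and 26.3% of the 50381 pairs of all protein-coding genes. Introns made up 28.0% of the members' windows, against 21.1%. Per 10 kb of intron there were 3.67 peaks at members, against 2.50 at all genes. In exons there were 4.49 against 4.44, and upstream 3.20 against 2.85. These densities were not tested, and a peak in overlapping windows counts for each gene. Within 500 bp of the start lay 12.4% of the members' pairs, against 11.6%. In 79 of the 275 pairs (28.7%) the summit was nearer to the start of another gene, against 51.3% of the pairs of all protein-coding genes. For 7 of the 85 members with a pooled peak (8.24%) this held for every pooled peak, against 27.9% of all protein-coding genes with one. These shares were not tested.

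**Figure D4:**
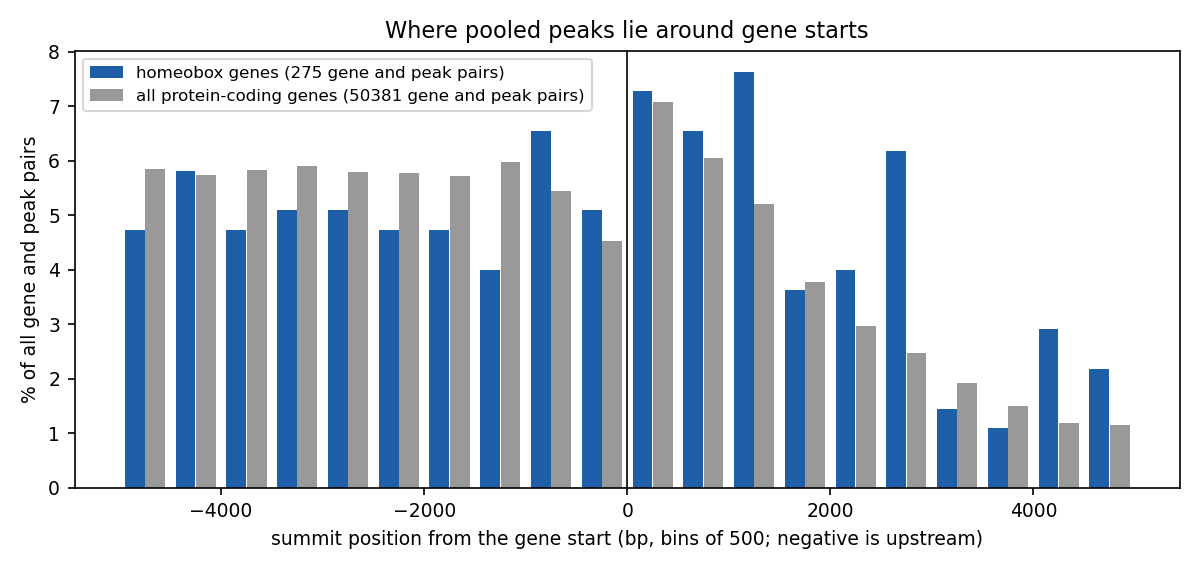
Share of gene and peak pairs by summit position from the gene start in bins of 500 bp, for homeobox genes (275 pairs, left bar of each bin) and all protein-coding genes (50381 pairs, right bar). Both sets are spread over the window, with the highest share of all genes just after the start, 7.08%, where homeobox genes have 7.27%. The highest homeobox bin, at 1000 to 1500 bp, holds 7.64%, against 5.20%, and pairs more than 5000 bp inside a gene are not drawn.

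Across the 65 homeobox peaks found in both replicates, the ranks in the replicates were weakly related. Spearman's rho was 0.287 for ranks and Pearson's r 0.354 for log10 signals, against 0.167 and 0.280 over the 8089 pooled peaks found in both. These are descriptions across peaks of the same libraries, selected on the pooled signal, and peaks are not replicates. Of the 266 pooled peaks at homeobox genes, 65 (24.4%, 19.4 to 30.1) were found in both replicates, against 27% of all pooled peaks, and 18 (6.77%) in neither, against 10.3%.

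**Figure D5:**
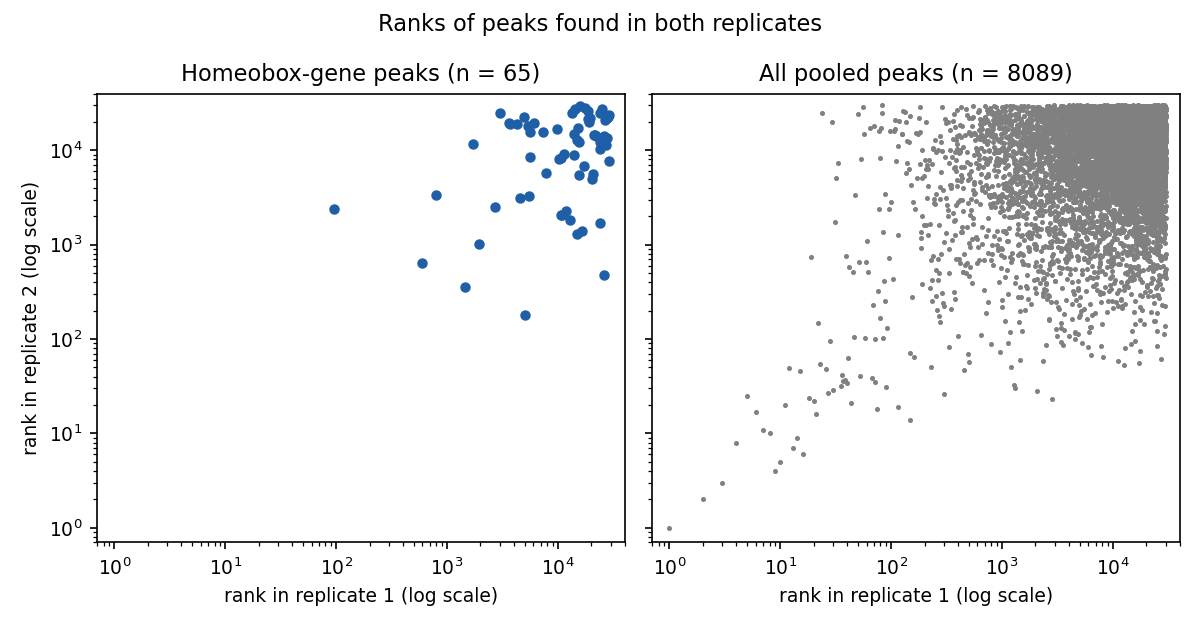
Rank in replicate 1 (horizontal) and replicate 2 (vertical), both on log axes, of the 65 homeobox peaks (left) and of all 8089 pooled peaks (right) found in both replicates. Among the homeobox peaks, ceh-24 lies at 598 and 636.

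E-boxes and base composition at homeobox peaks were close to those of the whole list. A CANNTG lay within 50 bp of the summit at 113 of 266 peaks (42.5%, 36.5 to 48.7), against 38.5% of all pooled peaks, and the median GC content was 40.6% in both. A match is a description and not a binding site. The motif was searched once, since it is its own reverse complement. Of the 266 peaks, 7 had a further genome copy of at least 90% identity over 100 bp, and these included 0 of the 11 peaks of rank 1 to 1000. Copies were not sought for the whole pooled list, so these counts have no background share beside them.

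X held 27.6% of the members, against 13.7% of protein-coding genes. At the 24 X-linked members there were 3.59 pooled peaks per 10 kb of window, against 3.23 at all X-linked genes, and on autosomes 3.51 against 3.02. A peak of rank 1 to 1000 lay at 3 of the X-linked members (12.5%) and 7 of the 63 autosomal members (11.1%), against 6.26% and 7.94% of all protein-coding genes there. Of the 3 on X, those of ceh-90 and lim-6 lay nearer to the starts of lgc-25 and pfn-3. The 7 autosomal members include nob-1 and php-3, which share such peaks. These counts are small, and neither the shares nor the densities were tested.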

How the data were processed

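ChIP-seq peak lists of 2 biological replicates of whole L1 larvae were used. Per the deposited notes, the authors called relaxed peaks on each replicate and on both together against a control alignment, on ce11, and derived a thresholded list of 115 peaks by the irreproducible discovery rate. The aligner, the caller and their versions were not given in the sources used here. Signal values deposited by the authors have no stated scale and are comparable within a list alone, so they served to rank its peaks. Read depth is unknown. The labels call the replicates biological and name no culture.

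Genes came from Ensembl release 115 (WBcel235, the same assembly as ce11). No peak ran past a reference chromosome end. Counts were made in Python 3.11.15 with pandas 2.3.3, the interval code was tested on simulated data, and intervals are 95% exact Clopper-Pearson, which treat genes or peaks as independent and cover counting error only. Copies were sought with BLAST 2.17.0. Members and lists were chosen with earlier results of these data known. Classes come from textbook knowledge. The genes named are the 20 members with the best pooled rank, members with a peak of rank 1 to 1000 in both replicates, the 6 Hox genes, and POU and LIM genes with a peak found in both replicates. Further genes were chosen after their values were seen. With 1 group, no test was run, and background shares over all protein-coding genes, which include the members, are given beside the counts. Alternatives changed the window, the assignment, the recovery distance, the rank limit and the replicates used.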

Additional observations from a re-analysis of the deposited data

How the results depend on the processing

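The counts of members with a pooled peak (65 to 85 under all alternatives run), with a peak found in both replicates at other recovery distances (35 to 57) and with a thresholded peak (0 in each) stayed within 1.5 times of the reported 85, 49 and 0. With gene bodies alone, 27 members had a peak found in both replicates, 6 a pooled peak of rank 1 to 1000 (10 as reported) and 1 a peak of that rank in both replicates (2 as reported), all more than 1.5 times lower. The density of 3.53 per 10 kb became 3.97 with gene bodies alone and 3.73 with 2000 bp upstream. In each replicate's list alone, 6 to 10 members had a peak of rank 1 to 1000. The density per 10 kb was 3.24 in replicate 1 and 3.46 in replicate 2, against 3.05 at all protein-coding genes in either list. In these lists 83 to 85 members had a peak, 38.1% to 40.2% of peaks had an E-box and 51.7% to 51.8% lay upstream. For a peak in both replicates, a rank limit of 500 left 0 members and a limit of 2000 gave 7. E-boxes lay at 22.9% of peaks within 25 bp and at 69.2% within 100 bp, and with 2000 bp upstream 29.2% of pairs lay upstream. The E-box shifts follow from the span searched, and the upstream share from the shorter upstream window. For most of these alternatives, shares over all protein-coding genes or all pooled peaks were not computed. Their values therefore show the dependence on the setting alone and not a difference from other genes.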
